A study of Mus musculus with 2 samples.

Results

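The Notch receptors and their canonical ligands are 9 mouse genes, the receptors Notch1, Notch2, Notch3 and Notch4 and the ligands Jag1, Jag2, Dll1, Dll3 and Dll4. They were taken by name from the gene spots of two-colour arrays of ureter RNA at postnatal day 4, where 13 probes of 60 bases with 4 spots each, 52 spots per array, carry them. All 9 genes were among the 21143 genes with a probe well above background. Each of 2 arrays paired an Rbpj-cKO RNA, genotype Tbx18(cre/+);Rbpj(fx/fx), with a control RNA, genotype Tbx18(+/+) with a floxed Rbpj allele and a second allele marked as not determined, all on the NMRI strain. The genotypes are thus unequal at Tbx18 too, and cre acts in cells that express or descend from cells expressing Tbx18, the undifferentiated mesenchyme around the ureteric epithelium. The labels do not say how many animals gave an RNA, so every p-value here speaks only of these 2 pairs. Limma, which gave the p-values, weighs the spread between the pairs in a gene with that in all genes tested. The pairs bring 1 degree of freedom and all genes 3.35. Array 1 held a pair labelled female, with the Rbpj-cKO RNA in red, and array 2 a pair labelled male with the dyes exchanged.

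Notch signalling passes between touching cells. A Jagged or Delta-like ligand on the surface of a cell binds a Notch receptor on its neighbour, proteases then cut the receptor, and its inner part enters the nucleus and joins the DNA-binding protein Rbpj to switch on target genes. Notch3 is known as the receptor of arterial smooth muscle and pericytes, Notch4 and Dll4 are best known from blood vessel endothelium, and Jag1 from endothelium, smooth muscle and epithelia. The receptors and ligands lie upstream of Rbpj, and the comparison asks whether their transcripts differ in ureter RNA between the genotypes. The cells in which cre acted were not read apart from the others.

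The probes below are the first 30 of 60 bases of the Notch3 and Dll4 probes, whose ratios lay below 0 on both arrays, and of both probes of Notch1 and Notch2, the receptors read by a pair of probes in different parts of the transcript. They are copied from the array files in the sense of the transcript, with no capitals since no motif is marked.
Notch3, its probe: gcctaatagaaatgtttttaggctgttttt
Dll4, its probe: tttgcccagactccatcctcacagctgggc
Notch1, brighter probe: tcctgcagtggagggggccttgagacaggc
Notch1, dimmer probe: ttgcttctttccaaaatcgaaaagaaagaa
Notch2, brighter probe: ccacttgaagtcttgcatagaaatgaacca
Notch2, dimmer probe: tcttcaccacactctgcatctgactggtca

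The Notch3 probe lies at chr17:32257848-32257907 on the minus strand (mm9, as the files give it) and starts at base 7873 of its transcript, and the Dll4 probe lies at chr2:119160779-119160838 on the plus strand and starts at base 2827. The Notch1 probes lie at chr2:26319440-26319499 and chr2:26314630-26314689 on the minus strand and start at bases 5898 and 8221. The Notch2 probes lie at chr3:97953914-97953973 and chr3:97951233-97951292 on the plus strand and start at bases 10129 and 7448. The exon and UTR annotation of mm9 was not used here.

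Both genotypes could be checked on these arrays only in part. The targeted gene Rbpj had log2 ratios of Rbpj-cKO over control of -0.92 on array 1 and -1.10 on array 2, a level of 49.7% of control, and whether its probes lie in the deleted part was not determined. Tbx18, the gene whose allele carries cre, had ratios of 0.16 and 0.01, or 106% of control (limma, adjusted p = 0.742). Smooth muscle markers (12 of 12), urothelium markers (15 of 15) and fibroblast markers (9 of 9) were well above background in all 4 RNAs. So were measured adipocyte (13 of 13), liver (8 of 8) and erythroid markers (7 of 7), and 7 of 8 kidney epithelium and 8 of 9 skeletal muscle markers. Measured genes had already passed the background filter, so these counts cannot tell which tissue gave the RNA. On the array labelled female, the Y-linked gene Ddx3y had a ratio of 4.23 and Eif2s3y 4.26, so the Rbpj-cKO RNA of array 1 holds Y-linked transcripts against its label. Log2 levels in that RNA were 11.31 for Ddx3y and 11.97 for Eif2s3y, against 7.08 and 7.70 in the control RNA of array 1. In that control RNA too, 4 of 4 spots of each gene were well above background. The brighter probe of Xist, the X-linked RNA of female cells, stood at 12.96 and 6.41 in the Rbpj-cKO RNAs, against 12.82 and 6.43 in the control RNAs. The Rbpj-cKO RNA of array 1 therefore held Xist at about the level of its female-labelled control together with Y-linked transcripts, and neither RNA of array 2 had a spot of Xist well above background. Among 8 measured liver markers all had opposite signs on the arrays, beside 38.5% of all genes, with medians of 0.70 on array 1 and -2.68 on array 2. Alb had a log2 level of 10.73 and 11.27 in the Rbpj-cKO RNAs, against 9.83 and 13.93 in the control RNAs. Values of both arrays are therefore given singly for the receptors and ligands, so that each can be read without the other. Some other genes have only a mean with SD or a percent of control.

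Notch3 had the lowest ratio of the receptors and ligands, and the other 8 genes lay closer to 0. Its log2 level, a normalized intensity, was 13.56 and 13.61 in the Rbpj-cKO RNAs of arrays 1 and 2, against 13.99 and 13.99 in the control RNAs. Both Rbpj-cKO values lay below both control values. The log2 ratios of -0.43 (array 1) and -0.39 (array 2) averaged -0.41 ± 0.03 (SD, n = 2), or 75.4% of the control level. Spots of the probe had SDs of 0.0164 and 0.0151 within the arrays, which is technical scatter and not the spread between RNAs. In limma's fit across all genes the 95% interval of the mean was -0.60 to -0.21, which is 65.9% to 86.4% of control, and the two-sided p was 0.00387 before and 0.181 after Benjamini-Hochberg adjustment. Notch3 thus did not pass the adjusted threshold of 0.05.

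None of the 9 genes passed that threshold (0 genes in limma, 1 at an unadjusted p under 0.05), and in all 0.00473% of the genes did, namely Ucp1. At an unadjusted p under 0.05, where 14.0% of all genes lay, Notch3 was the 1 member of the family called, and 7.02% of all genes lay there with a lower level. A ratio of -0.39 or lower on both arrays, as Notch3 had, was met by 342 genes or 1.62% of all, and a mean as far from 0 in either direction by 5.75%. A difference of at least 1.5-fold on both arrays was seen in 0 of the 9 genes in the higher direction, beside 0.402% of all genes, and in 0 in the lower direction, beside 0.795%. With the scanner's own log ratio 245 genes were that much higher and 265 lower, instead of 85 and 168.

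**Figure D1:**
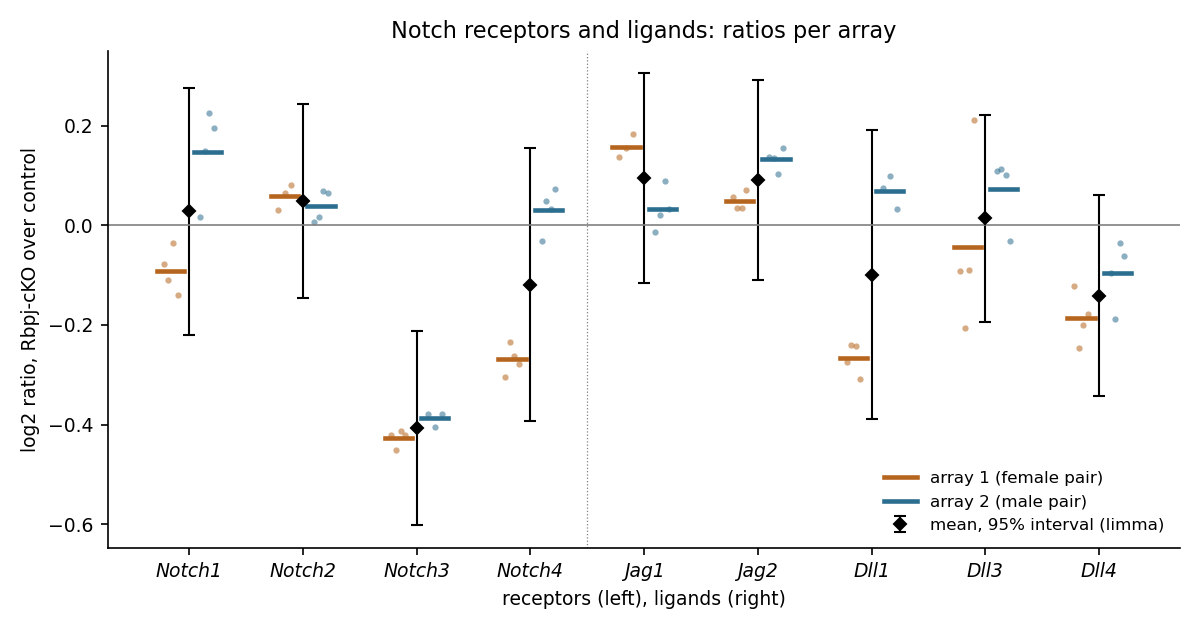
Log2 ratio of Rbpj-cKO over control (y axis) for the 4 receptors and 5 ligands (x axis), with dots for single spots of the brightest probe, coloured bars for the mean of an array and black diamonds with 95% intervals of limma's fit. Notch3 lies at -0.43 and -0.39 on the 2 arrays, below both bars of each of the other 8 genes, whose intervals all include 0.

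The plot of ratios per array shows how unequally the receptors behaved. Notch2, a receptor of many mesenchymal and epithelial tissues, stood at 13.09 and 13.03 in the Rbpj-cKO RNAs, against 13.03 and 12.99 in the control RNAs. Its ratios nearly coincided, at 0.06 and 0.04, with a mean of 0.05 ± 0.01 (SD, n = 2) and a 95% interval of -0.15 to 0.24 (limma, adjusted p = 0.839). The interval allows levels between 90.4% and 118% of control. The dimmer probe of Notch2 gave 0.02 and -0.14, with spot SDs of 0.151 and 0.0413, so its own ratios had opposite signs.

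Notch1, the receptor of many progenitor and endothelial cells, had levels of 9.34 and 9.95 in the Rbpj-cKO RNAs, against 9.43 and 9.81 in the control RNAs. The pairs differed more than the genotypes did, since both RNAs of array 2 were higher, by 0.50 on average. The dimmer probe did not show this, with 8.71 and 8.96 in the Rbpj-cKO RNAs, against 8.88 and 8.67 in the control RNAs, a shift of 0.02. The ratios of both probes had the same signs, with -0.09 on array 1 and 0.15 on array 2 for the brighter and -0.17 and 0.29 for the dimmer. The mean of the brighter was 0.03 ± 0.17 (SD, n = 2; limma, adjusted p = 0.934, interval -0.22 to 0.28).

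Notch4, the endothelial receptor, had 11.28 and 11.37 in the Rbpj-cKO RNAs, against 11.54 and 11.34 in the control RNAs. The Rbpj-cKO RNA was the lower of the pair on array 1 and close to the control on array 2. The ratios of -0.27 and 0.03 differed by 0.30, and 15.5% of all genes differed by at least as much between the arrays. Their mean of -0.12 ± 0.21 (SD, n = 2) was not called (limma, adjusted p = 0.688).

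Unequal change among receptors can be read within each array, where pairs of genes share both RNAs. Notch3 was lower than Notch2 by 0.48 on array 1 and 0.43 on array 2 on the log2 scale of the ratio. Its distance from Notch1 was -0.34 and -0.53, and that from Notch4 -0.16 and -0.42. Notch3 lay below each of the other receptors on both arrays. These differences are a description with no test.

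**Figure D2:**
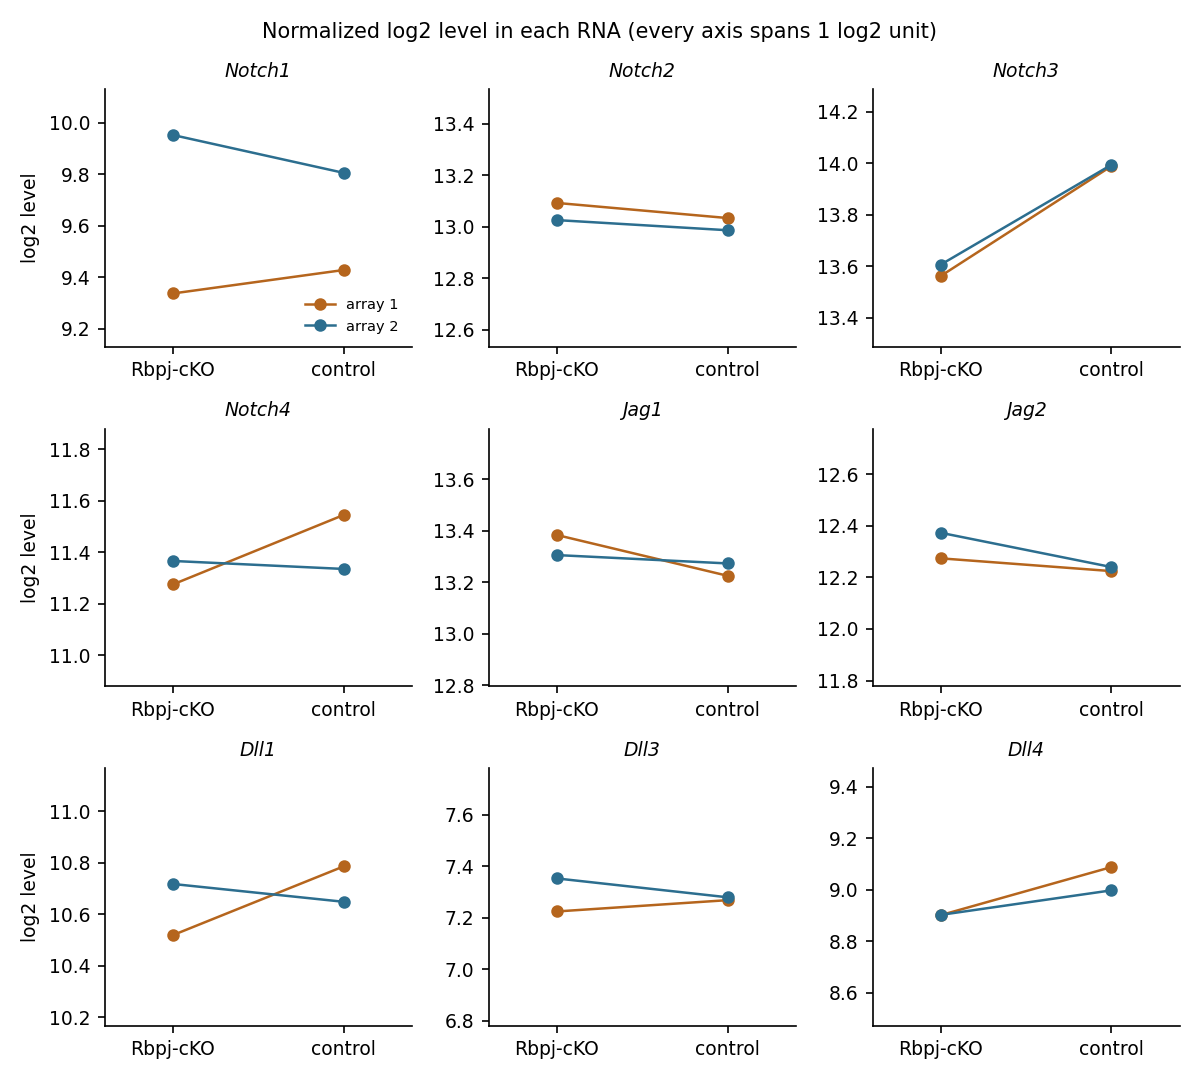
Normalized log2 level (y axis, 1 log2 unit in every panel) of each receptor and ligand in the Rbpj-cKO RNA and the control RNA (x axis) of array 1 (brown) and array 2 (blue), with a line joining the RNAs of an array. Both lines of Notch3 join Rbpj-cKO values of 13.56 and 13.61 with control values of 13.99. Those of Notch4, Dll1 and Jag1 cross, and those of Dll4 cross at their Rbpj-cKO ends. Crossing is not a change of sign, since Jag1 and Dll4 had the same sign on both arrays.

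Of the ligands, Dll4 was the only one below 0 on both arrays. Dll4 is the ligand of arterial and sprouting endothelium. It had 8.90 and 8.90 in the Rbpj-cKO RNAs, against 9.09 and 8.998 in the control RNAs. The ratios of -0.19 and -0.10 gave a mean of -0.14 ± 0.06 (SD, n = 2), or 90.7% of control, with an interval of -0.34 to 0.06 (limma, adjusted p = 0.501). Spot SDs were 0.0518 and 0.0671.

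The Jagged ligands lay slightly above 0. Jag1, which is expressed in vessels and epithelia, had 13.38 and 13.31 in the Rbpj-cKO RNAs, against 13.23 and 13.27 in the control RNAs, with ratios of 0.16 and 0.03 and a mean of 0.10 ± 0.09 (SD, n = 2; limma, adjusted p = 0.673). Jag2 had 12.27 and 12.37, against 12.22 and 12.24 in the control RNAs, with ratios of 0.05 and 0.13 and a mean of 0.09 ± 0.06 (SD, n = 2; limma, adjusted p = 0.673). The intervals reach 0.31 for Jag1 and 0.29 for Jag2, which allows levels of up to 124% and 122% of control. With each array centred on its median instead of loess, Jag1 and Notch2 were no longer above 0 on both arrays, with -0.03 and -0.003 on array 2.

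Dll1, a Delta-like ligand of many developing tissues, behaved like Notch4. It had 10.52 and 10.72 in the Rbpj-cKO RNAs, against 10.79 and 10.65 in the control RNAs. The ratios of -0.27 and 0.07 differed by 0.34, and 12.7% of all genes differed by at least as much between the arrays. Their mean was -0.10 ± 0.24 (SD, n = 2; limma, adjusted p = 0.769). A further Dll1 probe, near the 5′ end of a transcript at chr17:15513726-15513785, had 0 of 4 spots well above background in every RNA, and no ratio is drawn from it.

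Dll3, a ligand best known from somite formation, where it acts inside the cell, was dim. It had 7.22 and 7.35 in the Rbpj-cKO RNAs, against 7.27 and 7.28 in the control RNAs, with ratios of -0.04 and 0.07 (mean 0.01 ± 0.08, SD, n = 2; limma, adjusted p = 0.96). The spot SDs were 0.178 and 0.0703, and the 95% interval of the mean was -0.19 to 0.22. Its second probe gave -0.01 and 0.11.

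In order of the mean ratio the genes ran Notch3, Dll4, Notch4, Dll1, Dll3, Notch1, Notch2, Jag2 and Jag1. The single-array values of Notch3 and Dll4 did not overlap, whereas those of every later pair of neighbours did. Ratios of Dll4, at -0.19 and -0.10, fell inside the range of Notch4 and of Dll1, and those of Jag2 inside the range of Jag1. The 8 genes other than Notch3 had means between -0.14 and 0.10, and their limma intervals, which all include 0, spanned -0.39 to 0.31, or 76.1% to 124% of control. By sign, 2 of 9 genes were lower on both arrays (Notch3 and Dll4), beside 29.8% of all genes, and 3 were higher on both (Notch2, Jag1 and Jag2), beside 31.7%. The other 4 had opposite signs, beside 38.5% of all genes. All 4 were lower on array 1 and higher on array 2, beside 22.3%. The median of the mean ratio over the 9 genes was 0.01, and that of all genes was -0.0002.

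**Figure D3:**
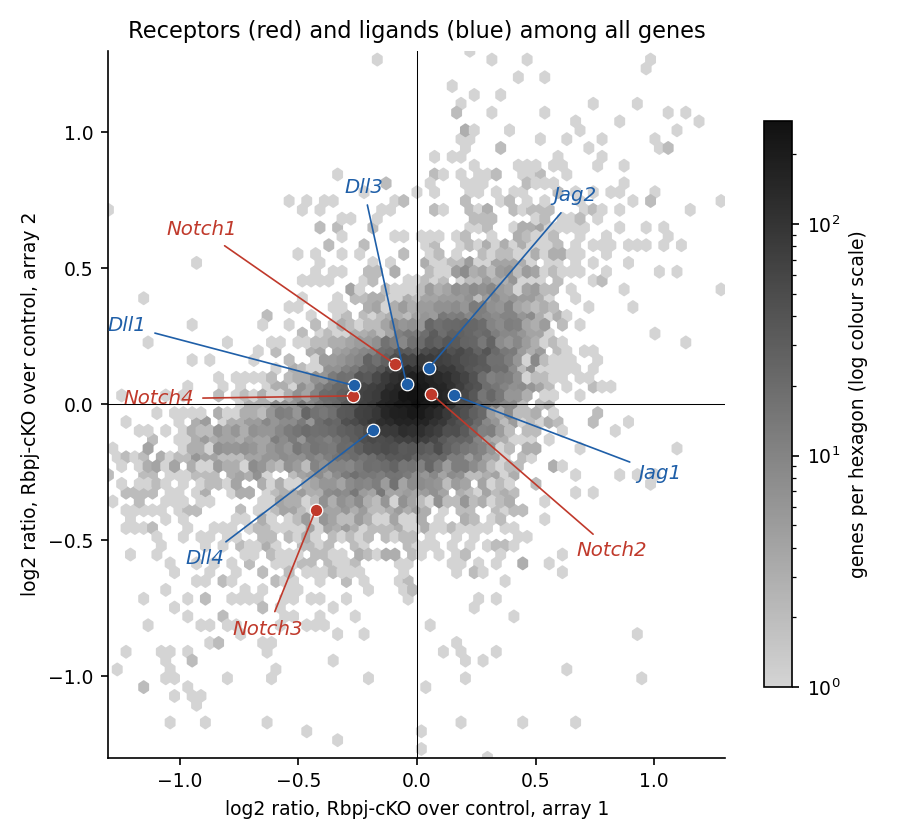
Log2 ratio of Rbpj-cKO over control on array 1 (x axis) and array 2 (y axis) for all genes as shaded hexagons, with receptors in red and ligands in blue; 247 genes lie outside the axes. Notch3 sits in the lower left at -0.43 and -0.39, Dll4 lies between it and the centre, and Notch4 and Dll1 lie to the left of the centre close to 0 on array 2.

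Pericytes and vascular mural cells are those in which Notch3 is best known. Of 9 of their markers, 6 were lower on both arrays, beside 29.8% of all genes, and 1 higher, Higd1b, beside 31.7%. None passed the adjusted threshold of limma. The median ratio of the list was -0.31 on array 1 and -0.26 on array 2, and all 9 were well above background in every RNA. Their mean log2 level was 12.89 and 12.94 in the Rbpj-cKO RNAs, against 13.18 and 13.21 in the control RNAs. Kcnj8, a potassium channel subunit of pericytes, had -0.70 ± 0.05 and Pdgfrb, the pericyte receptor for platelet-derived growth factor, -0.64 ± 0.11 (SD, n = 2 each). Other mural markers, named after their values were seen, lay near 0 or had opposite signs, with Higd1b at 0.17 and 0.04, Rgs5 at 0.02 and -0.28 and Anpep at -0.02 and 0.03. Notch3 lay below the list's median by 0.11 on array 1 and 0.12 on array 2, and 3 of the 9 markers had lower means. In bulk RNA, fewer cells of a type and less RNA per cell cannot be told apart, and the part of mural cells in the ratio of Notch3 was not tested.

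Smooth muscle markers were lower on both arrays for 9 of 12 genes, beside 29.8% of all genes, and higher for 0, beside 31.7%. Their medians were -0.15 and -0.35. Mean log2 levels were 14.34 and 14.39 in the Rbpj-cKO RNAs, against 14.61 and 14.78 in the control RNAs. Synm and Des, intermediate filament proteins of muscle, had -1.13 ± 0.21 and -0.74 ± 0.12 (SD, n = 2 each). Acta2 and Tagln, contractile proteins that define smooth muscle, and its regulator Myocd, named after their values were seen, had opposite signs on the arrays. Their ratios were 0.20 and -0.36 for Acta2, 0.20 and -0.34 for Tagln and 0.03 and -0.27 for Myocd. None of the 12 passed the adjusted threshold of limma. By its medians the list was further below 0 on array 2, whereas Notch3 was nearly equal on both. Single markers went either way. Synm, Des, Cald1 and Lmod1 were lower on array 1, with Synm at -1.27 and -0.98 and Cald1 at -0.53 and -0.36. The rest of the list was lower on array 2, with Smtn nearly equal at -0.28 and -0.32. Whether the smooth muscle list and Notch3 share a source was not tested.

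Endothelial markers stood beside Notch4 and Dll4. Of 18 endothelium markers, 12 were lower on both arrays and 1 higher, with medians of -0.18 on array 1 and -0.11 on array 2. Mean log2 levels were 12.58 and 12.55 in the Rbpj-cKO RNAs, against 12.82 and 12.67 in the control RNAs, and 17 of the 18 were well above background in every RNA. The ratio of Dll4 differed from the list's median by 0.002 on array 1 and 0.02 on array 2 in size. Notch4 was 0.09 below the median on array 1 and 0.14 above it on array 2. Among the markers, Cldn5, a tight junction protein, had -0.53 ± 0.36 and Flt1, a receptor for vascular endothelial growth factor, -0.40 ± 0.14 (SD, n = 2 each). Other endothelium markers, named after their values were seen, went otherwise. The 1 higher on both arrays was Robo4, at 0.04 and 0.25. Opposite signs were seen in 5, beside 38.5% of all genes. These were Pecam1 (-0.18 and 0.09), Cdh5 (-0.47 and 0.01), Eng (-0.10 and 0.05), Gja5 (0.11 and -0.20) and Efnb2 (0.13 and -0.07). The part of endothelial cells in these ratios was not tested.

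Other tissues moved in the same RNAs. For 13 adipocyte markers the median was -2.56 on array 1 and -1.002 on array 2. Kidney epithelium markers, 8 measured, had 0.997 and 0.25. In the same order the medians were 0.36 and 0.08 for 15 urothelium markers, 0.24 and 0.19 for 9 fibroblast markers, -0.22 and -0.23 for 7 erythroid markers, -0.11 and -0.07 for 9 skeletal muscle markers and -0.07 and -0.09 for 9 nerve and Schwann cell markers. Adipocyte markers were the furthest from 0 of these on array 1. Their part in the ratios of the receptors and ligands was not tested.

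**Figure D4:**
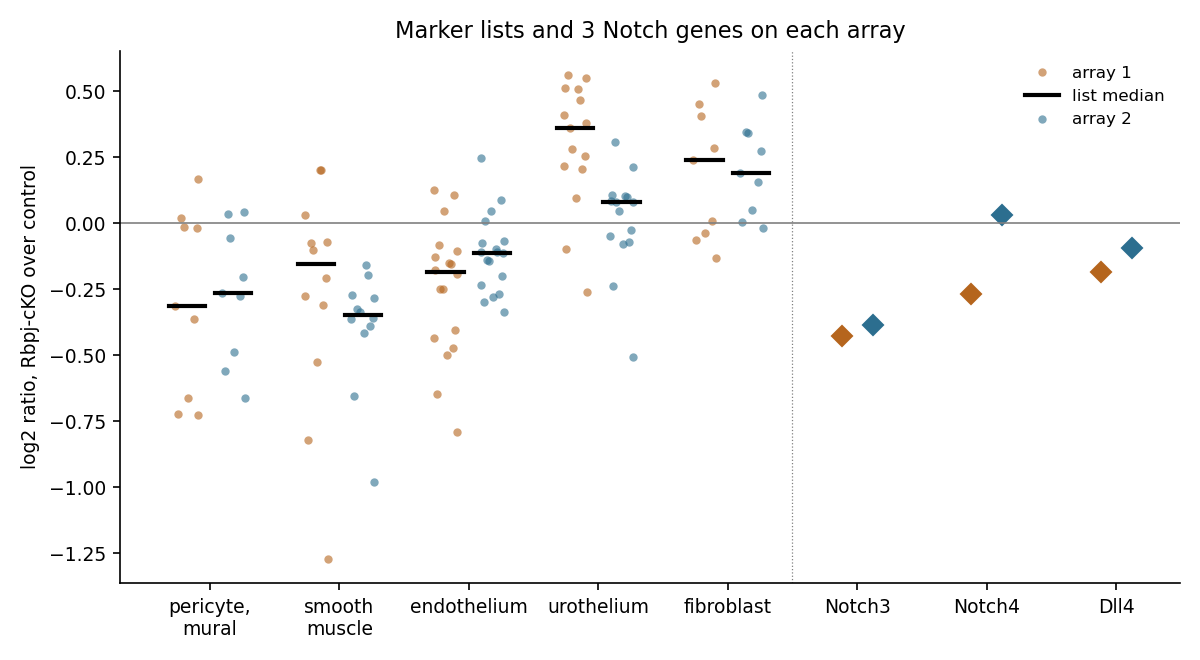
Log2 ratio of Rbpj-cKO over control (y axis) of each measured marker in 5 lists (dots, with the list median as a black bar) and of Notch3, Notch4 and Dll4 (diamonds), with array 1 in brown and array 2 in blue. Notch3 lies below the medians of the mural markers (-0.31 and -0.26), and Dll4 lies at the medians of the endothelium markers (-0.18 and -0.11).

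Across the 4 RNAs, the genes with levels most like those of Notch3, among 180 other genes of the lists, were Cald1, Flt1 and Aqp1. After centring of each gene their root mean square difference from Notch3 was 0.04, 0.05 and 0.05 log2 units. Most like Dll4 were Esam, Mib1 and Lfng (0.01, 0.03 and 0.03), and most like Notch4 were Mfng, Mib1 and Dll1 (0.03, 0.04 and 0.05). The distances rest on 4 RNAs and describe these values alone.

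The rest of the pathway was read from 5 further lists, and none of their genes passed the adjusted threshold of limma. Of 7 non-canonical Notch ligands measured, both arrays put 5 above 0, beside 31.7% of all genes, and 2 below, beside 29.8%. In that list 4 had an unadjusted p under 0.05 (limma), beside 14.0% of all genes. At that p lay 0 of the 5 canonical ligands, 2 of 14 processing genes, 1 of 13 trafficking genes, 1 of 12 genes of the nuclear complex and 6 of 10 target genes. Differences between the lists were not tested. Dlk1, a Delta-like protein of precursor cells that lacks the part of a canonical ligand that binds Notch, had -0.71 ± 0.18. Ccn3, a secreted matrix-associated protein, had 0.53 ± 0.08 and Dner, a Delta-like transmembrane protein of neurons, 0.41 ± 0.07 (SD, n = 2 each; limma, adjusted p between 0.135 and 0.191). Egfl7, an endothelial secreted protein named after its value was seen, had -0.35 ± 0.12, and it is also in the endothelium list.

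Genes that cut and glycosylate the receptors went both ways. On both arrays 6 of 14 were lower, beside 29.8% of all genes, and 6 higher, beside 31.7%. Their medians were -0.02 and 0.01. Aph1b, a subunit of gamma-secretase, had 0.29 ± 0.12 and Adam17, a protease that cuts the receptor's outer part, 0.28 ± 0.13 (SD, n = 2 each). Rfng, a fringe enzyme that adds sugar to the receptors and alters which ligands they bind, had -0.21 ± 0.16. The other fringe genes, named after their values were seen, were also below 0 on both arrays, Lfng at -0.22 and -0.15 and Mfng at -0.32 and -0.02.

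Among 13 genes of ligand and receptor trafficking 4 were lower and 4 higher on both arrays, beside 29.8% and 31.7% of all genes. Dtx2, a ubiquitin ligase that binds Notch, had -0.28 ± 0.19 and Mib1, the ubiquitin ligase needed for ligand endocytosis, -0.13 ± 0.12 (SD, n = 2 each), while Dtx3l had 0.16 ± 0.16. In the nuclear complex, 4 of 12 were lower and 4 higher on both arrays, beside 29.8% and 31.7% of all genes. Apart from Rbpj, at -1.01 ± 0.13 (limma, adjusted p = 0.0873), its ratios were small, with Maml3, a coactivator, at 0.15 ± 0.12 and Kat2a, a histone acetyltransferase, at -0.12 ± 0.004 (SD, n = 2 each).

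Target genes had the widest range of the pathway lists. On both arrays 3 of 10 were lower, beside 29.8% of all genes, and 4 higher, beside 31.7%. Heyl, a repressor of the Hes and Hey family known from smooth muscle, stood at 34.9% of control and Hey1 of the same family at 200% (both limma, adjusted p = 0.084), while Hes5 stood at 132%. The plot of pathway genes by step sets them side by side.

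**Figure D5:**
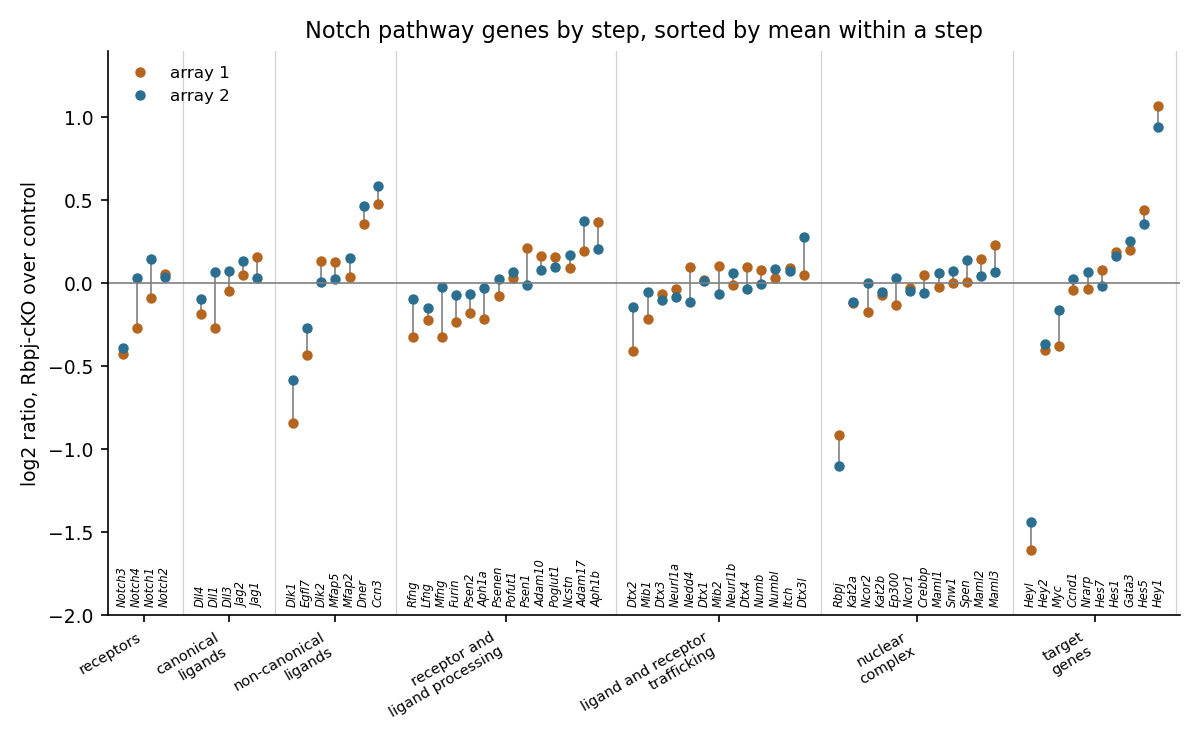
Log2 ratio of Rbpj-cKO over control (y axis) on array 1 (brown) and array 2 (blue) for the measured genes of 7 Notch lists (x axis), sorted by mean within a list, with a grey line joining the arrays. Receptors and canonical ligands stay between -0.43 and 0.16, whereas Rbpj lies near -1.01 and Heyl and Hey1 mark both ends of the target genes.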

How the data were processed

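Feature Extraction 10.7.3.1 (Agilent) read the intensity of each spot in both colours, per the file headers. The deposited log10 ratio sets red above green (equal to that of the processed signals within 0.02 at 100% and 87.1% of gene spots). The authors' deposited series table holds a score read as a signed fold change. How it was made, centred and floored is not stated there; the median of both columns was 1. Flags for spots above background are other deposited columns, per the file headers.

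Mean signals were corrected with normexp (offset 50) on local background medians and normalized by loess within arrays with limma 3.58.1 in R 4.3.3. Flagged outlier spots were dropped (3.34% and 3.12%), 0 spots were saturated, and spots of a probe were averaged. Levels of single RNAs were also scaled between arrays (Aquantile). A probe was kept if over 50% of spots passed the background flag on each array in a genotype (28176 probes), and the brightest probe stood for a gene. Names came from RefSeq accessions (GRCm38.p6, 28328 of 39429 probes). Of the gene spots, 71.8% to 74.0% were well above background in a channel, and the number of arrays limits the precision.

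Log2 ratios of Rbpj-cKO over control were tested against 0 with lmFit and eBayes (two-sided, Benjamini-Hochberg), on 1 residual and 4.35 total degrees of freedom. Both arrays lay on 1 slide, per the file headers. Dye, sex and pair changed together. The members and lists were chosen with earlier results of these data known. Named beyond the members are, per list, up to 3 genes with the largest mean of equal sign (2 for cell markers). The 12 alternatives tried and the omission of each array are in the closing section.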

Additional observations from a re-analysis of the deposited data

Results flagged for a closer look

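Of the receptors and ligands, 4 had a ratio below 0 on array 1, the pair labelled female, and above 0 on array 2, the pair labelled male. The difference of the log2 ratios, array 1 minus array 2, was -0.24 for Notch1, -0.30 for Notch4, -0.34 for Dll1 and -0.12 for Dll3. The difference was not tested: each sex label has 1 pair, the dyes changed with it, and the Rbpj-cKO RNA of array 1 goes against its label in part. A difference at least as large in size was found in 22.9% of all genes for Notch1, 15.5% for Notch4, 12.7% for Dll1 and 50.9% for Dll3.

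Y-linked transcripts were found in the pair labelled female. Log2 ratios of Rbpj-cKO over control on array 1 reached 4.23 for Ddx3y and 4.26 for Eif2s3y, beside -0.54 and -0.19 on array 2. The Rbpj-cKO RNA of array 1 had Xist at 12.96 and 11.21 by its probes, against 12.82 and 11.57 in its control RNA, so it held both kinds of transcript. Ddx3y and Eif2s3y were also well above background in that control RNA, at the lower levels of 7.08 and 7.70.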

How the results depend on the processing

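Across 12 alternatives Notch3 kept a mean log2 ratio between -0.44 and -0.40, with adjusted p between 0.106 (trend and robust eBayes) and 0.579 (median centring), and did not pass the threshold in any. Without replicate 1 its value was -0.39 and without replicate 2 it was -0.43, with no test. Notch3 and Dll4 were lower on both arrays under all 12. The count of members higher on both arrays was 3, but 1 with median centring (Jag2) and 2 with the mean over probes (Jag1 and Jag2). Notch2 changed sign with the mean over its probes (-0.0069), which averages in the dim probe. In the authors' deposited table Notch3 had signed values of -1.29 and -1.34. The count of all genes past the threshold was 1, but 0 with median centring, the log ratio of the scanner, the deposited series table, scaling between arrays (added after the data were seen) and the 4 channels in a 2-group fit without the replicate block, and 95 with trend and robust eBayes. Genes at least 1.5-fold lower on both arrays numbered 168, but 265 with the scanner's log ratio, and those higher 85, but 245 with it and 154 with the deposited table. The cause of these shifts was not tested. Aquantile scaling, trend and robust eBayes and the fit of the 4 channels leave mean ratios as they are by construction. For Notch3 and Dll4, with 1 probe each, so do the mean over probes and the omission of the filter on dim probes. For Dll4, which had no flagged spot, keeping flagged spots also leaves the mean ratio as it is. Scaling between arrays can change the size of a ratio but not its sign. How steady these genes were can thus be read only from the remaining alternatives.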

Other observations

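The core sequence bound by Rbpj, TGGGAA or its reverse complement TTCCCA, was looked for on both strands in windows of 250 bases before to 50 after the annotated starts (RefSeq, GRCm38.p6). It was in 0 of 10 windows of the 9 receptors and ligands, and in 25.6% of all 32851 windows. These letters are thus not in those windows, from which nothing follows about binding elsewhere.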
